A study of Mus musculus with 6 samples.

Results

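Adipokines are the proteins that fat cells release into the blood, and 8 of their genes were followed here: leptin (Lep), adiponectin (Adipoq), resistin (Retn), retinol-binding protein 4 (Rbp4), adipsin (Cfd), lipocalin 2 (Lcn2), apelin (Apln) and nicotinamide phosphoribosyltransferase (Nampt). Every probe set that the platform annotation names for 1 of these genes was taken. That gave 8 probe sets for 7 genes out of 22690 probe sets and 12393 named genes on the array. The annotation used here names no probe set for Cfd, which was therefore not analysed here. Lep, Adipoq, Retn, Rbp4, Lcn2 and Apln had 1 probe set each and Nampt had 2.

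RNA came from brown adipose tissue, the depot that burns fuel to make heat, and was hybridised to Affymetrix expression arrays, on which the brightness of a set of probes stands for the amount of a transcript. All mice, aged 3.5 months and with a mixed background of C57BL6 and 129, had received a high fat diet for 3 months, and carried 2 floxed alleles of Yy1, which encodes Yin Yang 1, a zinc finger factor that binds DNA. The 3 control arrays were from such mice without the Cre transgene, and the 3 YY1bKO arrays were from such mice that also carried Ucp1Cre, a transgene whose Ucp1 promoter drives deletion of the floxed gene in brown adipocytes. Other cells of the tissue, such as those of vessels and immune cells, are not targeted by this Cre. Nothing in the labels names the replicates as different animals, and the p-values then cover only the sample-to-sample spread, part or all of which may be technical.

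Leptin is released in proportion to the fat that adipocytes store and acts on the brain to curb food intake, and white adipocytes make far more of it than heat-producing brown adipocytes. Adiponectin raises the insulin sensitivity of liver and muscle, whereas resistin, a small cysteine-rich protein, opposes insulin action in mice. Rbp4 carries retinol in plasma, Lcn2 binds the iron-carrying siderophores of bacteria, Apln is a peptide ligand that acts on vessels and heart, and Nampt makes the precursor of NAD inside cells and is also found outside them.

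The tissue and genotype labels were checked first. Ucp1 stood near the top of the log2 intensity scale, at 13.92 ± 0.06 in control and at 13.78 ± 0.08 in YY1bKO tissue (SD, n = 3 each), and so did the brown adipocyte gene Cidea, at 13.74 ± 0.15 and 13.63 ± 0.01. Yy1 was lower in YY1bKO tissue, by limma adjusted p = 0.000854, its brightest probe set giving a log2 fold change of -1.43 ± 0.10 (SE). Its other probe sets gave -1.71, -0.81 and -0.06. The last did not pass (limma adjusted p = 0.766), and its mean log2 intensity was only 4.55 in control and 4.49 in YY1bKO tissue. Whether the Yy1 probes lie in the deleted part was not tested. The arrays are called control 1 to 3 and YY1bKO 1 to 3 by replicate number. Control 2 stood apart on the second principal component, which held 36.0% of the variance, and its mean over 14 skeletal muscle markers was 13.27, against 10.40 and 10.67 in the other controls and 11.51 to 11.97 in YY1bKO tissue. Results that rest on this array are given with and without it.

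The regions just upstream of the start sites are shown for 2 members that fell, Lep and Lcn2, since the CCAAT/enhancer-binding proteins (C/EBP) are known activators of the leptin gene and Yy1 is the factor deleted. These are 250 bases of RefSeq sequence on GRCm38.p6, 5′ to 3′ on the gene's strand and ending at the base before the start site. Capitals mark matches, on either strand, to a TATA box (TATAAA), a C/EBP motif (TTNNGCAA), a GC box (GGGCGG) or a Yy1 motif (GCCATNTT). The Lep window is chr6:29059971-29060220 on the plus strand, and the Lcn2 window is chr2:32387740-32387989 on the minus strand.
Lep: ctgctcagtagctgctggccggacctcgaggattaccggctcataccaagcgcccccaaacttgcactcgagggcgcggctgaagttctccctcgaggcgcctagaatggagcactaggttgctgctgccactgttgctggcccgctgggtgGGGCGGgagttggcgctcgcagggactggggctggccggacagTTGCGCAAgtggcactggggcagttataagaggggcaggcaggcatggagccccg
Lcn2: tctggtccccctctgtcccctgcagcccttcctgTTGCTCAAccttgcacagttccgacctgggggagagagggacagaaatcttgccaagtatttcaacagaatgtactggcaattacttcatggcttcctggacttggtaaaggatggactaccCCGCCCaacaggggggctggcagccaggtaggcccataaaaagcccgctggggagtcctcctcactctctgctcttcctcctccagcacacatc
The Lep window holds the C/EBP match TTGCGCAA, which reads the same on both strands, at positions -55 to -48 from the start, and 1 GC box. The Lcn2 window holds the C/EBP match TTGCTCAA, at positions -216 to -209, and 1 GC box. RefSeq gives Rbp4 2 start sites. The window before the inner one holds the C/EBP match TTATGCAA at positions -128 to -121, a TATA box at -28 to -23 and 2 GC boxes, and the window before the outer one holds none of the 4 motifs. The windows of Adipoq, Retn and Cfd also hold none, that of Apln holds 1 GC box and that of Nampt 5. None of the 9 windows of the members holds the Yy1 motif in the full form GCCATNTT. Shorter or looser forms of it were not searched. Over 32851 such windows in mouse, 9.56% hold the C/EBP motif, 12.4% the TATA box, 32.7% the GC box and 3.91% the Yy1 motif. The 4 motifs did not overlap in the members' windows. A match is a description of letters and not a binding site.

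Of the 7 measured adipokine genes, 3 fell in YY1bKO tissue: Lep, Rbp4 and Lcn2. None rose by the same test, limma's moderated test with Benjamini-Hochberg adjustment over all 12393 genes, each represented by its brightest probe set, at an adjusted p under 0.05. At an unadjusted p under 0.05, 1 was higher, Retn, and 5 were lower. That looser threshold is passed by at least 3956 of the 12393 genes, the rank by p of Nampt, the weakest of these members. Counts at it, here and for the lists below, are therefore a description. Its exact share over all genes was not computed. After adjustment, 18.3% of all genes were called in either direction, 10.2% higher and 8.09% lower, against 42.9% of the 7 adipokine genes. With so few genes, chosen with earlier results known, the shares are a description. The shares over all genes are also the background for the counts of called genes in the lists below. The median log2 fold change was -0.55 over the 7 adipokine genes and 0.04 over all genes. The YY1bKO and control arrays did not overlap for 5 of the 7, 4 lower and 1 higher, where this held for 38.5% of all genes, 15.7% lower and 22.8% higher. In 4 of the 7 genes control 2 was the lowest of the controls.

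**Figure D1:**
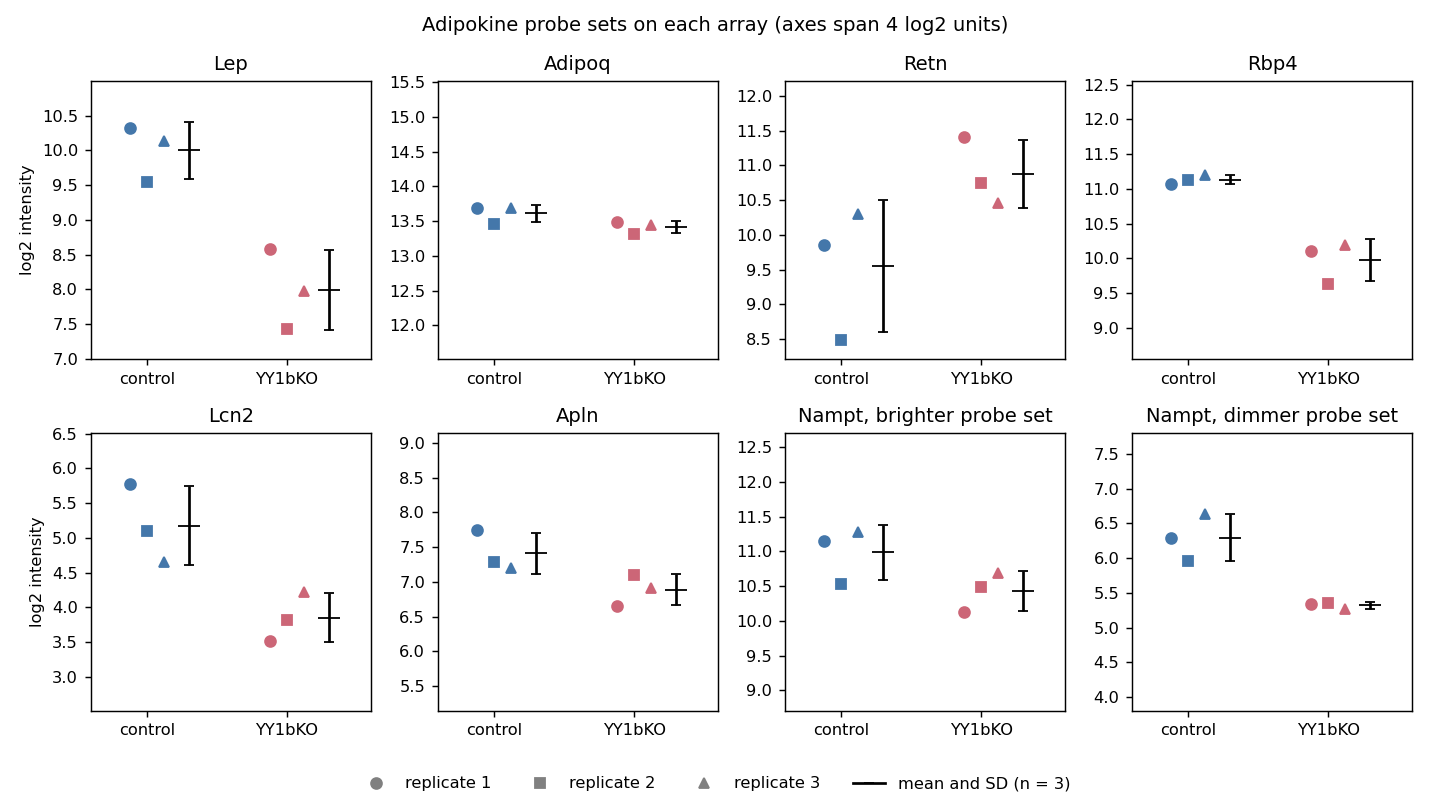
Log2 intensity (vertical axis) of each adipokine probe set on the 3 control arrays (blue) and the 3 YY1bKO arrays (red); the marker shape gives the replicate, and the black bar and whiskers beside each group give the mean and SD (n = 3). The groups are fully apart for Lep, Rbp4, Lcn2, Apln, Retn and the dimmer Nampt probe set, and overlap for Adipoq and the brighter Nampt probe set.

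Lep showed the largest fold change of the 7. Its log2 intensities were 10.32, 9.54 and 10.13 in control 1 to 3 and 8.58, 7.43 and 7.97 in YY1bKO 1 to 3. The lowest control value lay above the highest YY1bKO value. The means were 10.00 ± 0.41 in control and 7.99 ± 0.57 in YY1bKO tissue (SD, n = 3 each), a log2 fold change of -2.004 ± 0.32 (SE, 95% interval -2.77 to -1.24), or 4.01-fold lower (limma adjusted p = 0.00881). The log2 fold change was between -2.30 and -1.72 with any 1 array left out, with adjusted p between 0.00393 and 0.0414, and -2.23 without control 2. In bulk tissue, fewer cells of a type and less RNA per cell cannot be told apart, here and for every gene below.

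Rbp4 was the most even of the members among control arrays and also fell. Its control values were 11.07, 11.12 and 11.20, and its YY1bKO values 10.10, 9.62 and 10.19. All 3 YY1bKO arrays lay below all 3 controls, with YY1bKO 2 the lowest, as for Lep. The mean fell from 11.13 ± 0.07 to 9.97 ± 0.30 (SD, n = 3 each), and the log2 fold change of -1.16 ± 0.15 (SE) made it 2.23-fold lower (adjusted p = 0.0050). With any 1 array left out it stayed between -1.27 and -0.99, with adjusted p of at most 0.0218. Rbp4 is also a major product of hepatocytes, and 9 of the 10 measured hepatocyte markers were dim, meaning that their mean did not exceed 6.48, the median log2 intensity over the array. Of the 10, 1 was higher, the apolipoprotein gene Apoc3, a call lost without YY1bKO 2, and 0 were lower by limma, while at an unadjusted p under 0.05 none was lower and 2 were higher. The mean over those markers ranged from 4.89 to 5.42 in control and from 4.78 to 5.80 in YY1bKO tissue.

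Lcn2 fell from a dim level. Its values were 5.78, 5.11 and 4.65 in control and 3.52, 3.82 and 4.22 in YY1bKO tissue, so that the groups came close but did not overlap. Lcn2 was thus 2.50-fold lower, and the test gave adjusted p = 0.0285 for a log2 fold change of -1.32 ± 0.31 (SE). The call was lost without control 1 (adjusted p = 0.0567) or YY1bKO 1 (0.0985), 2 (0.0964) or 3 (0.0525). In the fit over genes, the log2 fold change was -0.79 (adjusted p = 0.0481) when 16 was added to each intensity before the log, which damps dim values. Neutrophils are a rich source of Lcn2. Of 12 measured neutrophil markers 11 were dim, 0 were called by limma and 0 had an unadjusted p under 0.05, and the list mean ranged from 4.67 to 4.92 in control and from 4.57 to 4.85 in YY1bKO tissue.

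Retn went the opposite way, but with a wide spread among controls. The control values were 9.86, 8.49 and 10.30, and the YY1bKO values 11.41, 10.75 and 10.46. Control 2 was far below the other controls, and the gap between the highest control and the lowest YY1bKO array was small. The log2 fold change of 1.33 ± 0.48 (SE, 95% interval 0.18 to 2.47) did not pass the test (adjusted p = 0.109). It was 0.79 without control 2 (adjusted p = 0.0846) and 1.70 without control 3 (0.0644). The other measured members of its small gene family, which share its cysteine-rich fold, were not called. Among them Retnla, made by alternatively activated macrophages, was at 10.36 ± 0.79 in control and 9.90 ± 0.35 in YY1bKO tissue (SD, n = 3 each, adjusted p = 0.468).

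Adipoq is named by a single bright probe set near the top of the intensity scale. Its control values were 13.69, 13.47 and 13.68, and its YY1bKO values 13.49, 13.32 and 13.45. The groups overlapped only through control 2, which lay just below YY1bKO 1. The log2 fold change of -0.19 ± 0.10 did not pass the test (SE, 95% interval -0.42 to 0.04, adjusted p = 0.222). The interval leaves room for a fall in intensity, but not for one as large as that measured for Lep. Without control 2 the log2 fold change was -0.27, and Adipoq was still not called (limma adjusted p = 0.0680). Whether the intensity of so bright a probe set still follows the amount of transcript in proportion was not tested.

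Apln had lower values in every YY1bKO array than in every control array, without passing the test. The control values were 7.74, 7.29 and 7.19, and the YY1bKO values 6.65, 7.09 and 6.92. The log2 fold change was -0.52 ± 0.18 (SE, 95% interval -0.95 to -0.10, adjusted p = 0.0912), and it was -0.36 without control 1 (adjusted p = 0.194). With array weights, which gave control 2 the lowest weight of the 6, it was -0.64 (adjusted p = 0.0357). Apln is made by sprouting endothelial cells as well as adipocytes. Of 11 measured endothelial markers 5 fell, Cdh5, Kdr, Tek, Cldn5 and Egfl7, by 0.53, 0.53, 0.65, 1.19 and 0.33 on the log2 scale, and the mean over the list ranged from 8.41 to 8.68 in control and from 7.92 to 8.06 in YY1bKO tissue. The number lower became 2 when control 1 was left out, 8 for control 2, 3 for YY1bKO 1 or 3, and 1 for YY1bKO 2. At an unadjusted p under 0.05, 9 of the 11 markers were lower and 0 higher, with a list median of -0.53. The part of endothelial cells in the Apln values was not tested.

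The 2 probe sets of Nampt, which the platform ties to the same sequence record, gave different calls. The brighter had control values of 11.15, 10.53 and 11.27 and YY1bKO values of 10.12, 10.49 and 10.69, which overlap. Its log2 fold change was -0.55 ± 0.23 (SE, adjusted p = 0.155), or -0.78 without control 2, where it was called (adjusted p = 0.0173). The dimmer had control values of 6.28, 5.97 and 6.64 and YY1bKO values of 5.34, 5.35 and 5.27, which do not overlap. It was 1.97-fold lower, a log2 fold change of -0.98 ± 0.16 (SE) that passed the test over all probe sets (limma adjusted p = 0.0109). In that fit over every probe set, 4 of the 8 adipokine probe sets were lower, those of Lep, Rbp4 and Lcn2 and the dimmer one of Nampt, where 16% of all probe sets were called in either direction, 8.83% higher and 7.16% lower. The 2 Nampt changes differed by 0.43 on the log2 scale, the dimmer having fallen by more (two-sided exact permutation p = 0.2, where 3 against 3 arrays allow 0.1 at best), so a difference between them is not established.

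**Figure D2:**
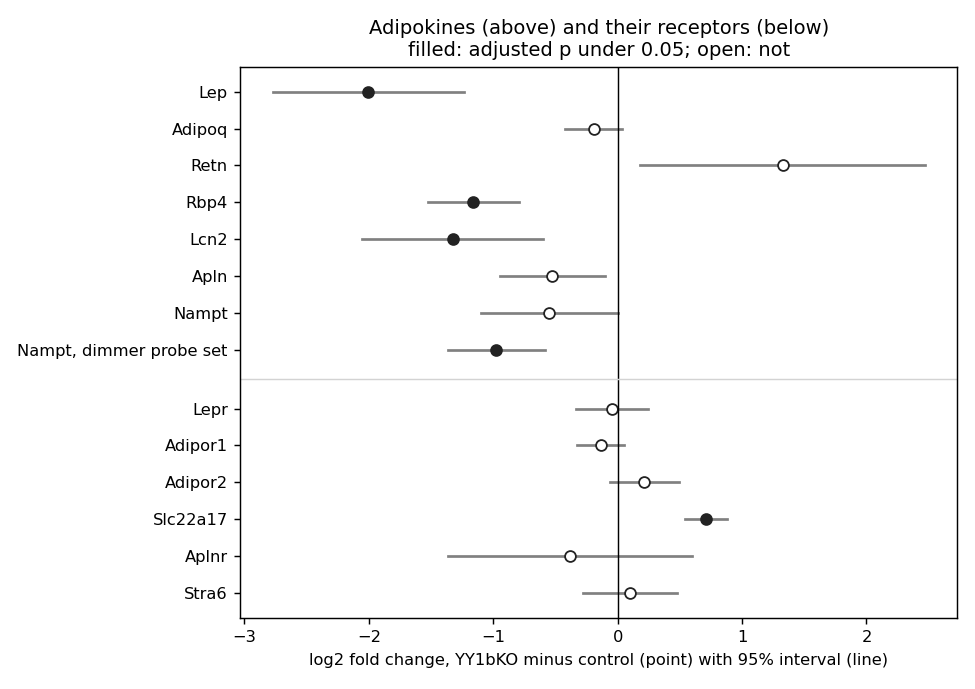
Log2 fold change, YY1bKO minus control (horizontal axis, point), with its 95% interval (line, from limma's moderated standard error, 3 arrays per group) for the adipokine genes and, below the grey line, for receptors; filled points were called. Lep, Rbp4, Lcn2 and the dimmer Nampt probe set are the filled points below 0, and among the receptors Slc22a17 is the filled point above 0.

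The receptors through which these proteins act are mostly found on other tissues, and they were read here for the adipose side. Slc22a17, described as a cell surface receptor for lipocalin 2, rose from 6.58, 6.56 and 6.53 in control to 7.31, 7.28 and 7.21 in YY1bKO tissue, the reverse of Lcn2 itself. Its log2 fold change was 0.71 ± 0.07 (SE), or 1.63-fold (adjusted p = 0.0022), with little spread in either group. The leptin receptor gene Lepr was dim and did not differ beyond the spread (5.20 ± 0.16 in control, 5.15 ± 0.16 in YY1bKO, SD, n = 3 each, adjusted p = 0.83). The adiponectin receptors Adipor1 and Adipor2 gave log2 fold changes of -0.14 ± 0.08 and 0.22 ± 0.12 (SE), and neither was called (adjusted p = 0.298 and 0.259). The apelin receptor gene Aplnr gave -0.38 ± 0.41 (SE, adjusted p = 0.576), and the retinol-binding protein receptor gene Stra6, which was dim, 0.10 ± 0.16 (SE, adjusted p = 0.726).

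In the wider list of 14 measured receptor genes, 2 were higher and 2 lower, with a median log2 fold change of 0.02. By the same test 10.2% of all genes were higher and 8.09% lower. Beside Slc22a17, Leprotl1, a relative of the leptin receptor overlapping transcript, was higher by 0.37 ± 0.08 (SE, adjusted p = 0.0223). Cdh13, T-cadherin, which holds adiponectin at the surface of vessels, fell by 0.50 ± 0.12 (SE, adjusted p = 0.0342), and Tlr4, the endotoxin receptor to which resistin can bind, by 0.73 ± 0.14 (SE, adjusted p = 0.015). Leaving out any array other than control 2 reduced the higher genes to 1. Among lower genes it was 1 without control 1 or YY1bKO 3, and 0 without YY1bKO 1 or 2. The Slc22a17 call was kept with each array left out. Cdh13 is also an endothelial gene, and the endothelial list was lower, as given for Apln.

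Downstream of the leptin receptor, Pik3r1, the regulatory subunit of phosphoinositide 3-kinase, fell from 8.35 ± 0.23 to 6.96 ± 0.38 (SD, n = 3 each), or 2.61-fold (adjusted p = 0.00769). It was the lower gene among 17 measured genes of this pathway, which insulin and other hormones share. The adaptor Sh2b1 and the kinase Akt1 were higher, by 0.32 ± 0.08 each (SE, adjusted p = 0.0336 and 0.0397). The Akt1 call was lost with any 1 array left out (adjusted p = 0.0543 without control 2) and with its probe sets averaged (0.0726), and that of Sh2b1 without any array except control 2. With its probe sets averaged, Pik3r1 gave -0.85 (adjusted p = 0.0127). The list median was 0.06, and the lower count was 2 without control 2 or 3.

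Around Nampt, the list of 15 measured genes for making and using NAD had 3 higher and 1 lower, with a median of 0.09. Nmnat1, which turns the Nampt product into NAD in the nucleus, rose by 0.69 ± 0.12 (SE, adjusted p = 0.0118), and the NAD-consuming deacylase genes Sirt7 and Sirt4 by 0.38 ± 0.08 and 0.36 ± 0.09 (SE, adjusted p = 0.0253 and 0.0348). Parp1, which spends NAD on DNA repair, fell by 0.73 ± 0.11 (SE, adjusted p = 0.00715). The higher count was 1 without control 1 or YY1bKO 3, 5 without control 2, and 0 without YY1bKO 1 or 2, and the lower count was 2 without control 2.

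Around Rbp4, 1 of 15 measured genes for retinol transport and storage was lower, Rdh11, a retinal reductase, whose log2 level dropped by 0.80 ± 0.12 from a dim mean (SE, adjusted p = 0.00745), and the list median was 0.07. Ttr, the plasma partner of Rbp4, was dim and uncalled, at 4.92 ± 0.33 in control and 5.13 ± 0.41 in YY1bKO tissue (SD, n = 3 each, adjusted p = 0.598). Around Cfd, 1 of 9 measured genes of the alternative complement pathway was lower, the complement regulator gene Cr1l, by 0.31 ± 0.08 (SE, adjusted p = 0.0492), a call lost without any array except control 2. Around Adipoq, 1 of 9 measured genes for the assembly of its multimers was higher, the endoplasmic reticulum oxidase gene Ero1a, by 0.72 ± 0.13 (SE, adjusted p = 0.0144), a call lost without YY1bKO 2 or 3.

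Lcn2 and Rbp4 are lipocalins, small proteins that carry greasy molecules in a barrel-shaped pocket. Among 12 other measured lipocalin genes, 1 was lower, the prostaglandin synthase gene Ptgds, from 8.97 ± 0.32 to 6.64 ± 0.14 (SD, n = 3 each, adjusted p = 0.000862), and 1 was higher, the complement gene C8g, by 0.67 ± 0.11 (SE, adjusted p = 0.00881). The list median was 0.10, and both counts were 2 without control 2. Lcn2 is also an acute phase gene that NF-kB activates, and of 20 other such genes measured 3 were lower and 0 higher by limma, with 6 and 0 at an unadjusted p under 0.05 and a median of -0.19. Those 3 were Ptx3, a long pentraxin (-1.64 ± 0.28, SE, adjusted p = 0.0109), the haptoglobin gene Hp (-0.70 ± 0.13, adjusted p = 0.0158) and the adhesion molecule gene Icam1 (-0.75 ± 0.17, adjusted p = 0.025). The count was 7 without control 2 and 1 without YY1bKO 1 or 2. The Icam1 call was lost without control 1 or YY1bKO 1 or 2, and that of Hp without any YY1bKO array.

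Other proteins that adipose tissue releases moved both ways. Of 33 further adipokine genes measured, 5 were lower and 3 higher, with a median of -0.20. The lower ones include Ptx3 and Hp, given above, and Cxcl14, a chemokine made by active brown fat, which fell by 1.39 ± 0.28 (SE, adjusted p = 0.0177). The higher ones were Fgf21, a hormone of energy balance (1.62 ± 0.26, SE, adjusted p = 0.00901), Bmp8b, a growth factor of thermogenic fat (1.54 ± 0.29, adjusted p = 0.0152), and the progranulin gene Grn (0.52 ± 0.11, adjusted p = 0.0245), and the first and second of these were dim. The lower count was 3 without control 1, 10 without control 2, 1 without YY1bKO 1 and 2 without YY1bKO 2 or 3. The Bmp8b call was lost without YY1bKO 1, that of Cxcl14 without YY1bKO 1 or 3, and that of Grn without control 3 or YY1bKO 2 or 3.

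Of 24 measured transcription factors that shape adipocytes and their secreted products, 6 were lower and 2 higher, with a median of -0.23. By the same test 8.09% of all genes were lower and 10.2% higher. The factor Cebpa had values of 10.29, 10.53 and 10.61 in control and 10.10, 9.83 and 9.97 in YY1bKO tissue. It fell by 0.51 ± 0.12 (SE, limma adjusted p = 0.0268). A link between Cebpa and the adipokine values was not tested. Epas1 and Hif1a, subunits of the factors that respond to low oxygen, fell by 1.12 ± 0.22 and 0.49 ± 0.12 (SE, adjusted p = 0.0162 and 0.0348). Zfp467 and Klf4 also fell, by 0.47 ± 0.11 and 0.62 ± 0.16 (SE), the former from a dim level. The coactivator Ppargc1a rose by 1.09 ± 0.13 (SE, adjusted p = 0.00356). Pparg, the master regulator of adipocytes, overlapped between groups at 11.26 ± 0.37 and 11.07 ± 0.05 (SD, n = 3 each). The lower count was 2 without control 1, 1 without control 3 or YY1bKO 1, and 0 without YY1bKO 2 or 3, and the higher count was 1 without any array except control 2. Among the calls lost are those of Cebpa without control 3 or any YY1bKO array, of Epas1 without control 1 or any YY1bKO array, of Hif1a without any array except control 2, of Zfp467 without control 3 or any YY1bKO array, and of Klf4 without any array except YY1bKO 1. When a gene's probe sets were averaged, Hif1a (-0.26, adjusted p = 0.0611) and Klf4 (-0.54, adjusted p = 0.0567) were not called, and Zfp467 gave -0.79. The Ppargc1a call was kept with each array left out, and the average of its probe sets gave 0.61 (adjusted p = 0.0331).

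Genes that followed the 3 lower adipokines most closely across the 6 arrays were found by the root mean square distance between log2 values centred on each gene's mean, among genes with a mean above the median of all probe sets. The nearest to Lep was Ptger3, a receptor for prostaglandin E2, at a distance of 0.16 log2 units (Pearson's r = 0.99). Fam20c, a kinase of secreted proteins, and Aldh1a7, an aldehyde dehydrogenase, followed at 0.25 and 0.30. The nearest to Rbp4 were Ces1d, a lipase of the carboxylesterase family, Rpusd4 and Ntrk3, at 0.12 to 0.13, and the nearest to Lcn2 were Ptx3, Cxcl14 and Aqp1, at 0.18, 0.26 and 0.29. All 9 were called lower, with adjusted p from 0.00118 to 0.0177, which the choice by likeness favours. The Aqp1 call was lost without YY1bKO 1 (adjusted p = 0.0591) or YY1bKO 2 (0.0604) and that of Cxcl14 as given above, and Ptger3 gave -1.15 with its probe sets averaged (adjusted p = 0.00713). These values rest on 6 arrays that share the group difference and carry no test.

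**Figure D3:**
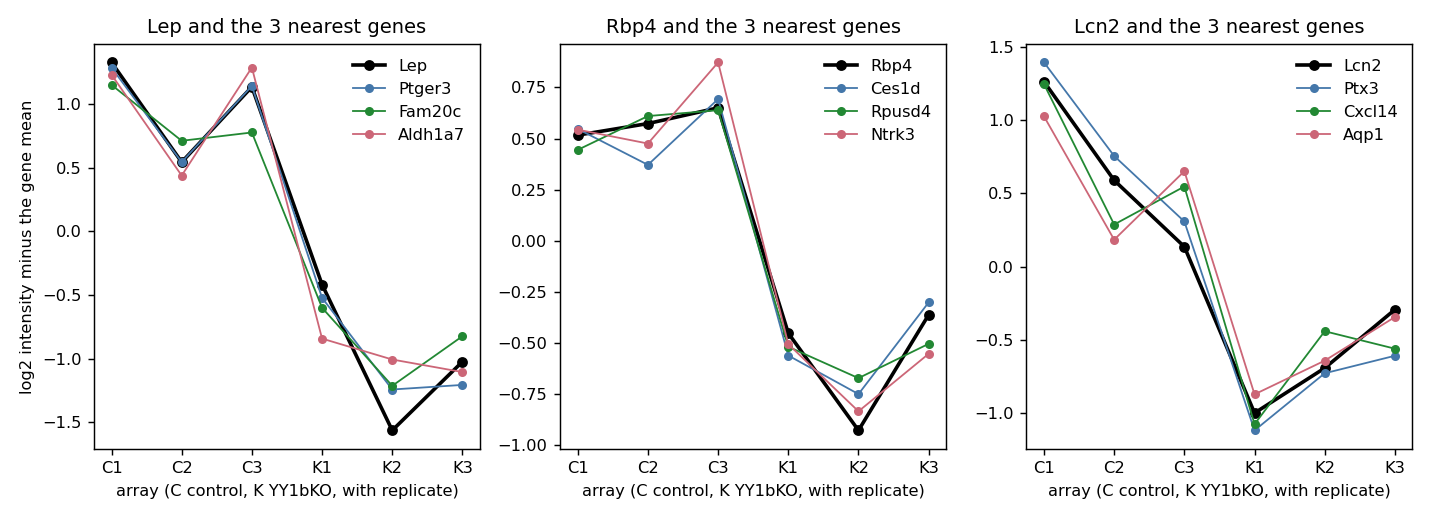
Log2 intensity minus each gene's mean (vertical axis) on the 6 arrays (C control, K YY1bKO, with replicate number) for Lep, Rbp4 and Lcn2 (black) and the 3 genes nearest to each. Lep and Ptger3 share the dip in control 2 and nearly coincide on the 3 control arrays, and Lcn2 and Ptx3 are both highest in control 1 and lowest in YY1bKO 1.

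Within groups the members did not vary as one. Control 1 was the highest control array for Lep, Adipoq, Lcn2 and Apln, while control 3 was the highest for Rbp4, Retn and both Nampt probe sets. YY1bKO 1 was the highest YY1bKO array for Lep, Retn and Adipoq but the lowest for Lcn2, Apln and the brighter Nampt probe set. Replicates have no order, so these are statements on single arrays.

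**Figure D4:**
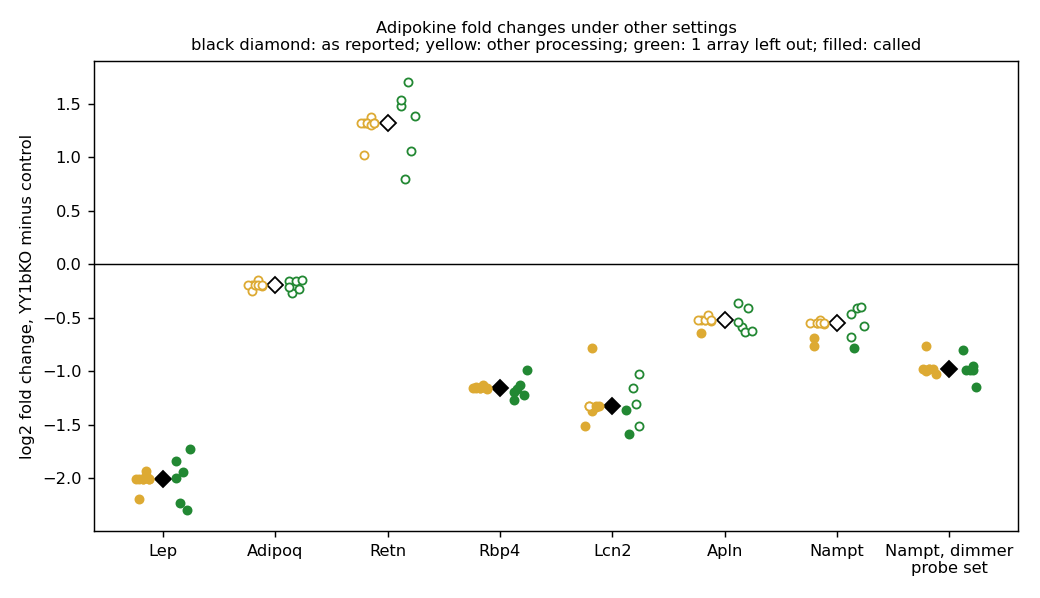
Log2 fold change, YY1bKO minus control (vertical axis), of each adipokine under the reported setting (black diamond), other processing (yellow) and with 1 array left out (green); filled points were called. Lep, Rbp4 and the dimmer Nampt probe set are filled at every setting drawn, Lcn2 ranges from -1.59 to -0.79 and is open at several, and Adipoq and Retn are open throughout.

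Markers of the cells in the tissue were compared over the same arrays. Of 11 measured adipocyte markers 2 were lower, the glycerol channel gene Aqp7 (-0.78 ± 0.08, SE, adjusted p = 0.0026; -0.43 with its probe sets averaged) and Cebpa, and 0 were higher by limma, with 3 and 1 at an unadjusted p under 0.05. Their mean ranged from 11.73 to 12.06 in control and from 11.66 to 11.78 in YY1bKO tissue. The lower count was 5 without control 2 and 1 without control 3 or any 1 YY1bKO array, and the higher count was 1 without control 3. Of 15 brown adipocyte markers 3 were higher and 2 lower, with means from 10.12 to 10.36 and from 10.22 to 10.28. The lower count was 4 when control 2 was left out and 1 for control 1 or YY1bKO 2 or 3. In both of these lists control 2 was the lowest control and the only one not above every YY1bKO array. The means of controls 1 and 3 were 11.99 and 12.06 for adipocyte markers and 10.32 and 10.36 for brown adipocyte markers. None of 11 markers of white adipocytes, the cells with the highest leptin output, was called by limma, at an unadjusted p under 0.05 none was lower and 1 higher, and the ranges of the list mean overlapped, 6.13 to 6.67 in control and 6.53 to 6.73 in YY1bKO tissue. The lower count of this list was 1 without control 2. Macrophage markers had 2 of 13 lower, Cd163 and Msr1, with list means from 7.82 to 8.51 and from 8.18 to 8.34, and the count was 1 without control 1 and 0 without any 1 YY1bKO array. With its probe sets averaged, Msr1 gave -0.084 and was not called (adjusted p = 0.494), and its call was also lost with the trend and robust options of eBayes (0.0509). The skeletal muscle list had 0 of 14 genes called by limma, also 0 at an unadjusted p under 0.05, and 12 higher in YY1bKO tissue without control 2. Without control 2, which leaves the YY1bKO arrays above both remaining controls in this list, Lep gave -2.23 (adjusted p = 0.00393) and Rbp4 -1.16 (adjusted p = 0.00536). The part of these lists, skeletal muscle included, in the adipokine values was not tested.

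**Figure D5:**
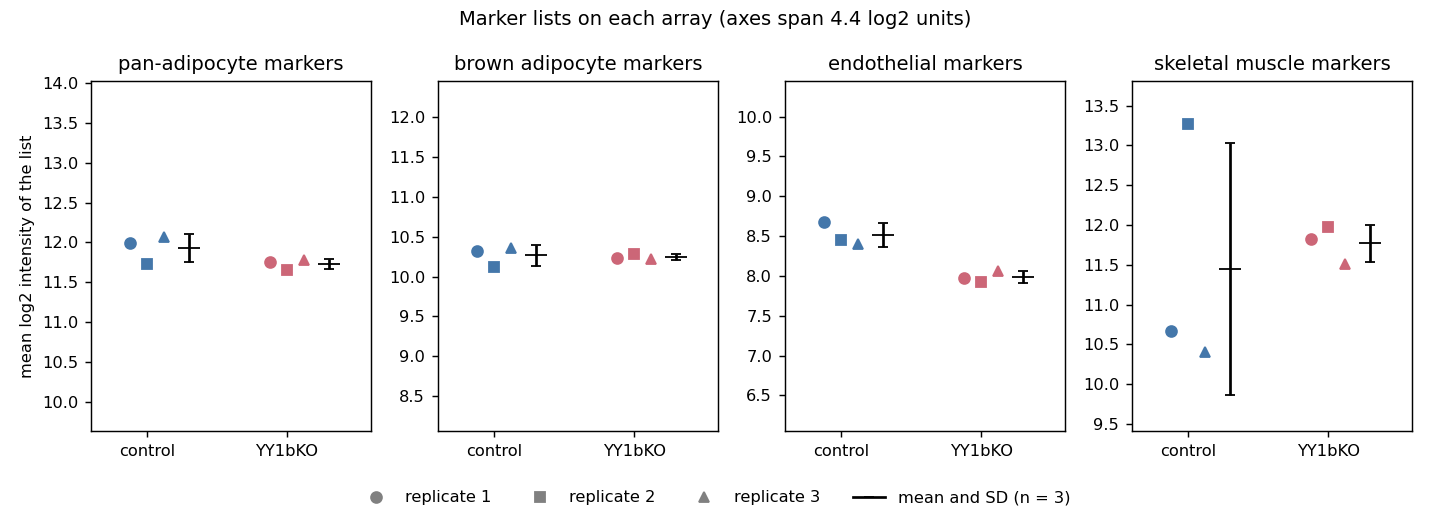
Mean log2 intensity (vertical axis) of 4 marker lists on each control (blue) and YY1bKO (red) array; the marker shape gives the replicate, and the black bar and whiskers give the mean and SD (n = 3). Brown adipocyte markers overlap between groups through control 2 only, endothelial markers are lower on all YY1bKO arrays, and control 2 has the highest skeletal muscle value, 13.27.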

How the data were processed

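The deposited table, 1 column for each of the 6 arrays, holds a probe set intensity on a linear scale. RMA, which corrects background, equalises the arrays and summarises probes, is named in the submitters' processing notes; the sources used here give no version. By construction it compresses differences at low intensity and removes a shift common to most transcripts. The intensities, 4.91 to 21219, were transformed to log2. After 64 control probe sets were removed, 20380 of 22626 had 1 gene symbol in the platform annotation, 691 several and 1555 none.

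limma 3.58.1 in R 4.3.3 (lmFit, eBayes, group as sole term, 6 arrays) was run on the brightest probe set of each of 12393 genes and, separately, on all probe sets, and was checked on simulated data. Adjusted p-values are Benjamini-Hochberg, SE the moderated standard error. The 2 Nampt probe sets were set against each other in an exact permutation test.

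Members and lists were chosen with earlier results of these data known. Genes named are the members, Yy1, their direct receptors, called genes of the lists by smallest p, up to 6 a list, and the 3 genes nearest to each called member. Some called genes, mostly of marker lists, are counted without being named. A few others (Ucp1, Cidea, Pparg, Ttr, Retnla) were named after their values were seen. Lists on fibroblast, epithelial, lymphocyte and erythroid markers had 0, 1, 1 and 0 called genes. The number of arrays limits precision.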

Additional observations from a re-analysis of the deposited data

How the results depend on the processing

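Of the single adipokine results, those of Lep, Adipoq, Retn, Rbp4 and the dimmer Nampt probe set kept their direction and their side of the threshold under every alternative run. Quantile normalization, median centring and eBayes with trend and robust options changed no call of a member. With 16 added to each intensity, 3 adipokine genes were called lower as before, but 3 adipokine probe sets in place of 4. With array weights 5 adipokine genes were called lower in place of 3, Apln and the brighter Nampt probe set (-0.69, adjusted p = 0.0327) being added. Array weights also raised the calls over all genes, to 1676 higher and 1482 lower from 1267 and 1003. In the mean over its probe sets Nampt was called (-0.76, adjusted p = 0.0322). Leaving dim probe sets out, 2 adipokine probe sets were called lower in place of 4, since those of Lcn2 and the dimmer one of Nampt were then not tested. With 1 array left out, 2 to 4 adipokine genes and 3 to 5 adipokine probe sets were called lower and none higher.

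Same-numbered arrays did not deviate together (correlations of -0.25, 0.11 and 0.26), so the numbers are not taken as pairs. With the replicate number as a block, 671 genes were higher and 639 lower over all genes, 2 adipokine genes and 3 adipokine probe sets were lower, and Lcn2 was not called (adjusted p = 0.0825). Over all genes, 469 were higher and 562 lower with a fold of at least 1.5 added, and 547 to 1661 higher and 466 to 1439 lower with 1 array left out, against 1267 and 1003. The Yy1 log2 fold change was between -1.53 and -1.37 with 1 array left out. With 1 array left out Lepr ranged from -0.14 to 0.016, turning positive for control replicate 3 (0.016) and YY1bKO replicate 1 (0.0063). Stra6 ranged from -0.050 to 0.20, turning negative for YY1bKO replicate 2 (-0.050) and control replicate 1 (-0.00072). The cause was not tested.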
